A study of Homo sapiens with 6 samples.

Results

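The ATF4 effector genes are a set of 10 genes listed as targets of the transcription factor ATF4, though PPP1R15B among them is known as a constitutive form. They were taken by name: the feedback genes TRIB3, CHAC1, PPP1R15A and PPP1R15B, the amino acid genes ASNS, CTH and PCK2, and the secreted, surface and translation genes STC2, VLDLR and EIF4EBP1. All 10 were found among the 35130 gene names listed per library, and all 10 were among the 12576 genes tested, the cut being an average of 1 TPM or more across libraries. RNA was measured by sequencing in SK-N-BE(2) cells, an established human neuroblastoma line that carries MYCN amplification and, per the labels, comes from bone marrow. Cells in dishes received either the solvent DMSO (3 libraries) or 1 µM NEN (3 libraries) for 24 h. The labels give NEN by that abbreviation alone. In the neuroblastoma literature it stands for niclosamide ethanolamine, a mitochondrial uncoupler, which is taken here as background. A single line, dose and time were used, and the labels call the libraries of a group biological replicates without saying how the cultures were kept apart.

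When cells meet amino acid shortage, misfolded protein, viral RNA or mitochondrial failure, a small group of kinases phosphorylates the translation factor eIF2. General protein synthesis then falls while the ATF4 mRNA is translated better, and ATF4, often with a C/EBP partner, binds composite elements near its target genes. The effectors described here stand at the end of that route: some act back on the pathway, some make or spare amino acids, and some are secreted or act on lipoprotein uptake and on cap-dependent translation.

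ATF4 binds C/EBP-ATF response elements, whose core letters are TGATGNAA. That core was searched on both strands of the RefSeq promoter windows (build GRCh38.p14), each of which runs from 250 bases before to 50 bases after a transcript start. The palindrome TGACGTCA of CREB and ATF proteins was searched as well, and no match of either overlapped the other in the genes' windows. Windows were held for 9 of the 10 genes, EIF4EBP1 being the exception, with 3 windows for TRIB3 and 2 for ASNS. The core was found in the windows of 3 of these 9 genes: ASNS, CHAC1 and PPP1R15B. By comparison, 2.61% of 9125 tested genes with a window and 3.62% of all 35116 windows of the same length held it. The palindrome was found in the window of 1 member, PPP1R15A, against 4.0% of the tested genes and 1.85% of all windows. The 4 stretches before the start site are shown because they pair 3 genes that rose with PPP1R15B, which did not pass the test. They are written 5′ to 3′ on the strand of the gene, with the matched letters in capitals. The intervals are chr7:97872409-97872658 (minus strand), chr15:40953221-40953470 (plus strand), chr19:48872171-48872420 (plus strand) and chr1:204411818-204412067 (minus strand).
ASNS: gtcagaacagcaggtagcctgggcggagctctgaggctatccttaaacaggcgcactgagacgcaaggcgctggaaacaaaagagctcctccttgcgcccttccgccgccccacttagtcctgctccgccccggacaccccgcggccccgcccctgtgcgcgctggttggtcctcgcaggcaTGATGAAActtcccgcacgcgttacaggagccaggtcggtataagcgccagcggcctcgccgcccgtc
CHAC1: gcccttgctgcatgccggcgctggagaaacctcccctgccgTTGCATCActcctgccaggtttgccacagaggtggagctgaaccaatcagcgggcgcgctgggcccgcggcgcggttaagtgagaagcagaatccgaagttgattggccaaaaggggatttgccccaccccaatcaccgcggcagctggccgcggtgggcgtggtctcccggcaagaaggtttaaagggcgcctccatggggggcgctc
PPP1R15A: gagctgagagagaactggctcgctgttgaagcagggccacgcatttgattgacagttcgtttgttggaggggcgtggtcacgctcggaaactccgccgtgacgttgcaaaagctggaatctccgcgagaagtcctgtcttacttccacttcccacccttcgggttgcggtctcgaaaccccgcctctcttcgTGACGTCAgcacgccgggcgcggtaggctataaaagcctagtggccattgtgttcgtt
PPP1R15B: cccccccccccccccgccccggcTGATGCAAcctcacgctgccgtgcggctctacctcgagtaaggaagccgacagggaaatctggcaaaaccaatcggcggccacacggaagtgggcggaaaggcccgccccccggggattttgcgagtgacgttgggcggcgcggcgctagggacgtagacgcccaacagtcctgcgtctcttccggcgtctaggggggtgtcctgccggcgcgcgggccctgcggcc
Counted from the start site, the matches begin at position -68 in ASNS, -209 in CHAC1, -58 in PPP1R15A and -227 in PPP1R15B. The CHAC1 match lies on the opposite strand, where it reads TGATGCAA, the same letters as in PPP1R15B, while ASNS holds TGATGAAA. These are matches of letters in a short window, not measured sites, and the windows of TRIB3, CTH, PCK2, STC2 and VLDLR held neither motif.

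With NEN, 9 of the 10 genes rose and 0 fell, and PPP1R15B did not pass the test. The set was chosen with earlier results of these data known, so its counts are a description and not independent support. Leaving out 1 library at a time gave 6 to 7 genes that rose. Among all tested genes 30.0% passed the threshold of an adjusted p of 0.05, and 13.5% did so by rising. PPP1R15A and TRIB3 had the largest differences of the set, 1.65 and 1.61 on the log2(TPM + 1) scale, followed by CHAC1 (1.36) and STC2 (1.26). The median difference of the 10 genes was 0.70, beside -0.02 for all genes tested. In 9 of 10 genes every NEN library lay above every DMSO library, a pattern found in 21.8% of tested genes. The opposite pattern was found in 0 of the 10 genes and 25.0% of tested genes, so groups that do not overlap in either direction were common (46.8%). Rises of at least 1 on this scale that passed the test were found for 4 of the 10 genes and in 1.57% of tested genes. All differences are NEN minus DMSO from limma, given ± SE with a Benjamini-Hochberg adjusted p. The pseudocount of 1 makes them smaller than the change in TPM for low genes. TPM is scaled by transcript length, so levels of different genes can be compared, but it keeps no record of sequencing depth.

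**Figure D1:**
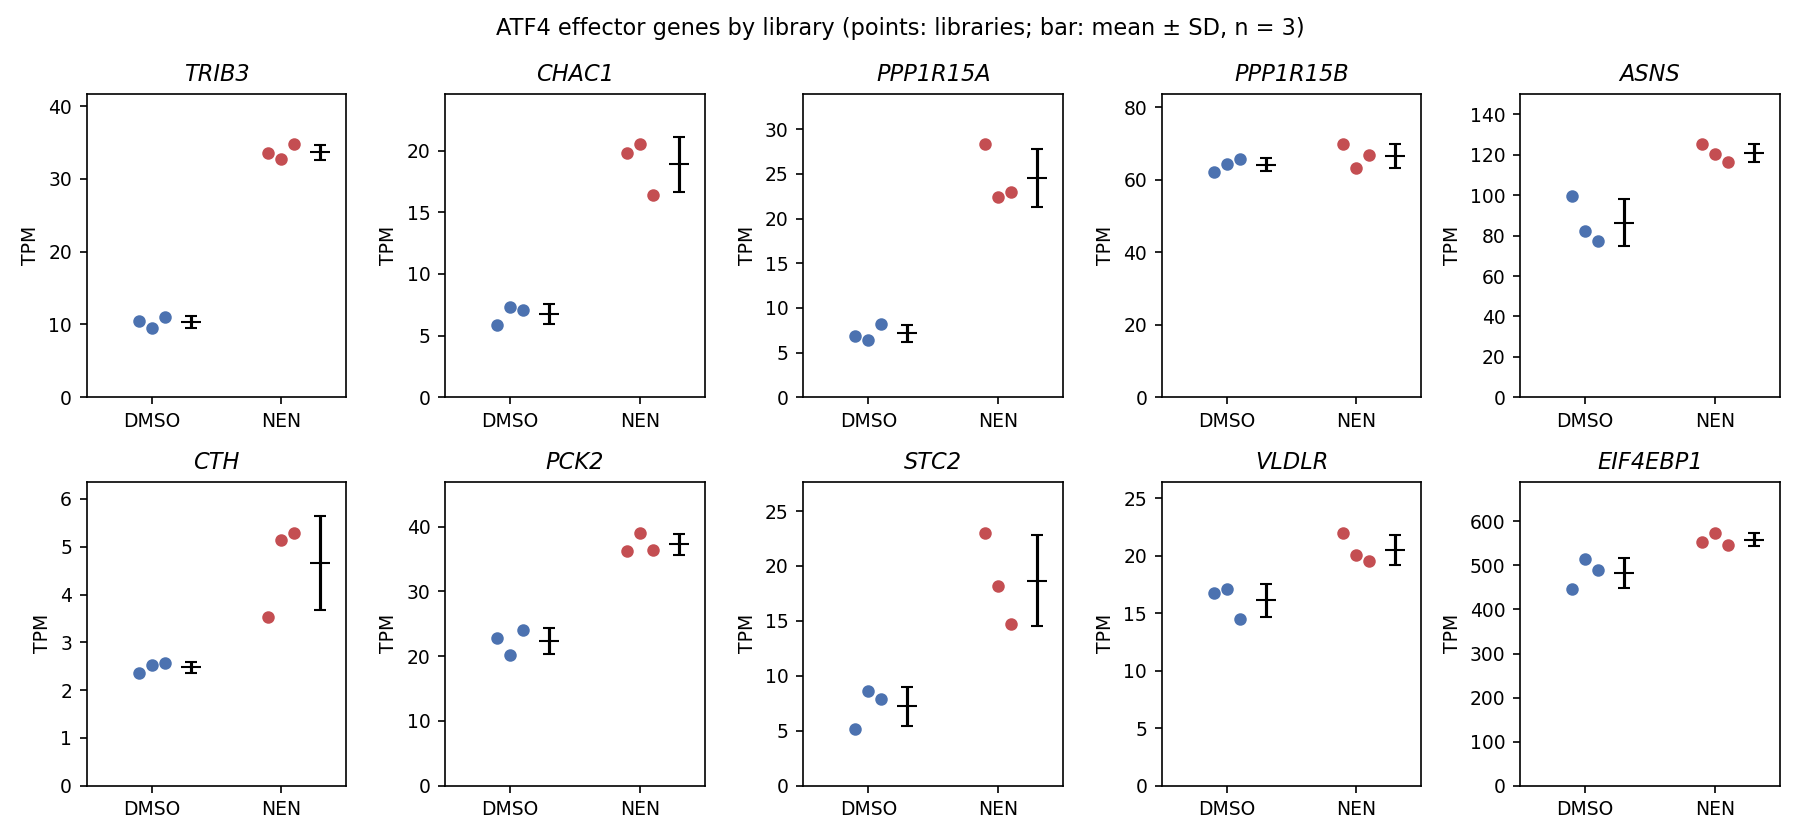
TPM of the 10 ATF4 effector genes in each library, DMSO in blue and NEN in red, with the mean ± SD of 3 libraries beside the points and every axis starting at 0. NEN libraries lay above DMSO libraries in every panel except PPP1R15B, where the groups overlap.

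The feedback genes gave the largest and the smallest response of the set. TRIB3 encodes a Tribbles pseudokinase that binds ATF4 and restrains it. It had 10.5, 9.49 and 11.0 TPM in the DMSO libraries and 33.5, 32.7 and 34.8 TPM in the NEN libraries, so the groups were far apart and tight. This is a 3.25-fold rise in mean TPM, or 1.61 ± 0.09 on the log2 scale (adjusted p = 0.000215), and the gene ranked above 99.8% of tested genes by its difference. CHAC1 encodes an enzyme that degrades glutathione. Its values were 5.85, 7.35 and 7.06 TPM with DMSO and 19.8, 20.5 and 16.4 TPM with NEN, where the lowest treated library lay above the highest control. The rise was 2.80-fold in mean TPM and 1.36 ± 0.13 on the log2 scale (adjusted p = 0.000778).

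PPP1R15A and PPP1R15B encode alternative regulatory subunits that bring protein phosphatase 1 to eIF2 and so reverse its phosphorylation. PPP1R15A, the stress-induced form known as GADD34, had 6.90, 6.37 and 8.19 TPM with DMSO and 28.3, 22.4 and 22.9 TPM with NEN. NEN replicate 1 was the highest library, and the other NEN libraries were close to each other. Its mean rose 3.44-fold, or 1.65 ± 0.13 on the log2 scale (adjusted p = 0.00044). PPP1R15B, the constitutive form known as CReP, had 62.3, 64.3 and 65.9 TPM with DMSO and 69.9, 63.2 and 66.7 TPM with NEN. The groups overlapped and the difference was 0.05 ± 0.06 (adjusted p = 0.575), with a 95% interval from -0.10 to 0.20 that lies below the interval of PPP1R15A (1.33 to 1.96). PPP1R15B was the more abundant mRNA of the pair in every library. PPP1CA, a catalytic subunit of the phosphatase, had -0.14 ± 0.05 and did not pass the test (adjusted p = 0.0909).

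**Figure D2:**
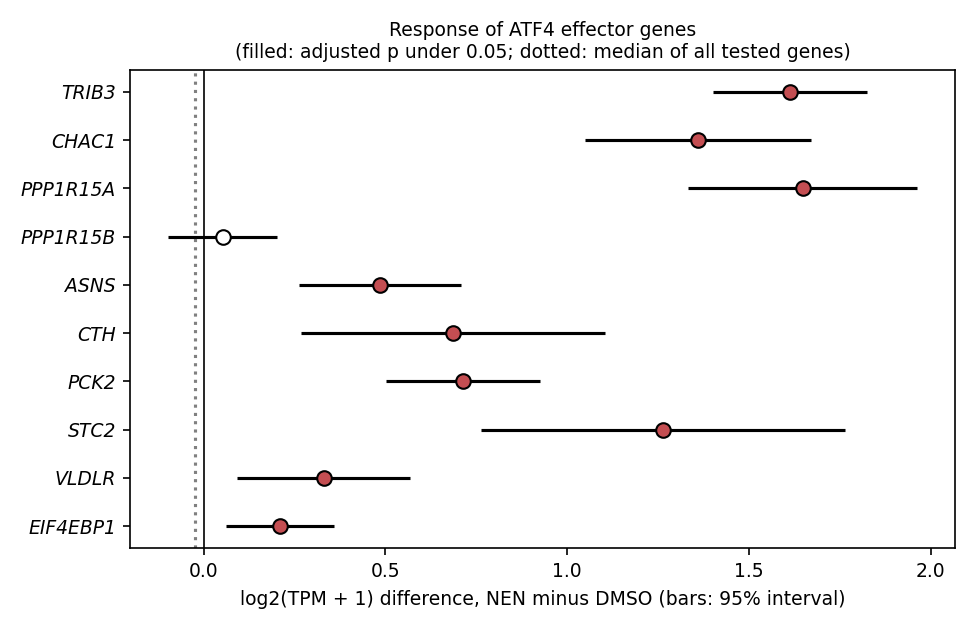
Difference between NEN and DMSO on the log2(TPM + 1) scale for each gene, with 95% intervals from limma (n = 3 and 3), filled where the adjusted p was under 0.05. The dotted line is the median of all tested genes (-0.02), and the interval of PPP1R15B alone includes 0.

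Among the amino acid genes the rises were smaller. ASNS makes asparagine from aspartate and glutamine, and is among the best known ATF4 targets. It had 99.4, 82.5 and 77.5 TPM with DMSO and 125.3, 120.5 and 116.5 TPM with NEN. DMSO replicate 1 was the highest control library, yet the groups did not overlap, and the rise was 1.40-fold or 0.48 ± 0.10 (adjusted p = 0.00901). Another entry, AC079781.5, shares 44.6% of the ASNS exon bases on the same strand in GENCODE release 29. It was listed at 2.32 to 13.7 TPM with overlapping groups, and how reads were divided between the entries is not stated. PCK2 encodes the mitochondrial enzyme that makes phosphoenolpyruvate from oxaloacetate. Its values were 22.9, 20.1 and 24.1 TPM with DMSO and 36.3, 39.1 and 36.4 TPM with NEN, with little spread in either group. It rose 1.67-fold, or 0.71 ± 0.09 (adjusted p = 0.00183).

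CTH encodes the enzyme that releases cysteine from cystathionine and was the lowest gene of the set. It had 2.35, 2.52 and 2.57 TPM with DMSO and 3.52, 5.15 and 5.30 TPM with NEN, so NEN replicate 1 was lower than the other NEN libraries. The rise was 1.88-fold in mean TPM and 0.69 ± 0.18 on the log2 scale (adjusted p = 0.0263). That call was lost on leaving out DMSO replicate 1 (0.66), DMSO replicate 2 (0.69), DMSO replicate 3 (0.70), NEN replicate 2 (0.62) or NEN replicate 3 (0.60). At this low level the difference also moved with the pseudocount, to 0.86 with 0.1 and 0.36 with 5.

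STC2 encodes stanniocalcin 2, a secreted glycoprotein hormone. It had 5.18, 8.62 and 7.85 TPM with DMSO and 23.0, 18.2 and 14.8 TPM with NEN, which made it the most variable of the strongly raised genes. The groups did not overlap and the rise was 2.59-fold, or 1.26 ± 0.21 (adjusted p = 0.00529). VLDLR encodes a receptor for lipoproteins and for the neuronal guidance protein reelin. Its values were 16.8, 17.1 and 14.5 TPM with DMSO and 22.0, 20.1 and 19.5 TPM with NEN. This small separation gave 1.27-fold and 0.33 ± 0.10 (adjusted p = 0.0452). Leaving out any of the 6 libraries ended the VLDLR call, with differences from 0.26 to 0.37, as did no filter (adjusted p = 0.0802) and limma without its trend and robust settings (adjusted p = 0.0506). The antisense gene VLDLR-AS1 covers 7.9% of its exon bases in GENCODE release 29, and strand was not stated.

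EIF4EBP1 encodes 4E-BP1, which binds the cap-binding factor eIF4E and blocks translation when mTORC1 is inactive. It was by far the most abundant mRNA of the set, with 446, 514 and 489 TPM in DMSO and 554, 575 and 546 TPM in NEN libraries. It made up 65.8% to 70.2% of the summed TPM of the 10 genes in DMSO and 60.5% to 62.7% in NEN libraries. The difference was 1.16-fold, or 0.21 ± 0.06 (adjusted p = 0.0418). Its call was lost without DMSO replicate 3 (0.22), NEN replicate 1 (0.22), NEN replicate 2 (0.19) or NEN replicate 3 (0.23). Testing without the filter ended it too (adjusted p = 0.0762), as did limma without its trend and robust settings (adjusted p = 0.112).

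**Figure D3:**
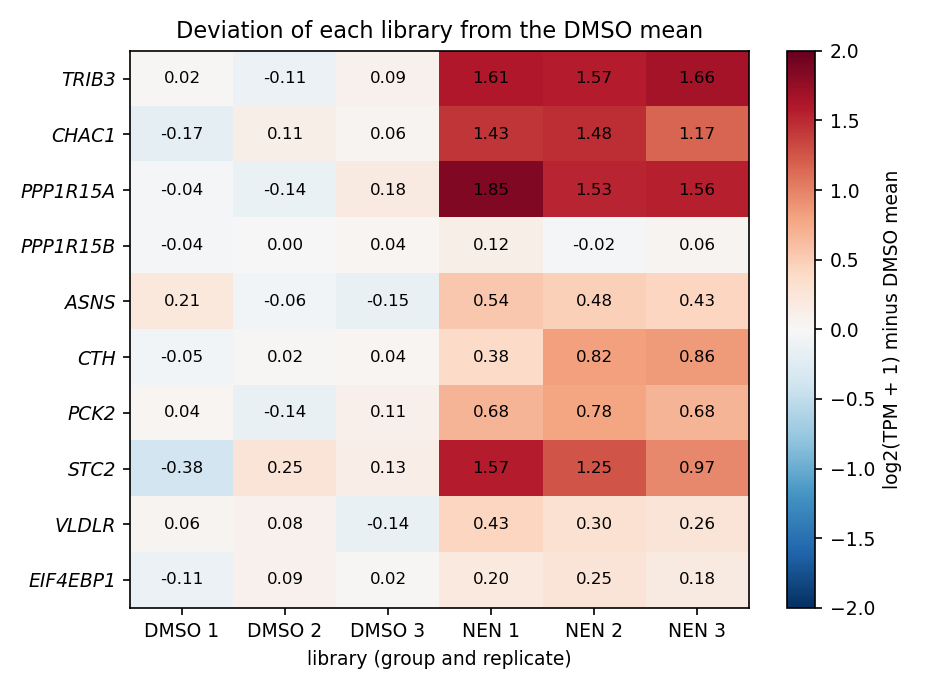
Each library's log2(TPM + 1) value minus the mean of the DMSO libraries, by gene (rows) and library (columns), with the value printed in each cell. NEN libraries reach from -0.02 (PPP1R15B, replicate 2) to 1.85 (PPP1R15A, replicate 1), and DMSO libraries from -0.38 to 0.25.

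Across libraries, the 10 genes summed to 678, 732 and 707 TPM with DMSO and to 916, 916 and 879 TPM with NEN. Relative to the DMSO mean, the median gene lay at 0.61, 0.80 and 0.77 on the log2 scale in NEN replicates 1, 2 and 3. All 10 genes lay above that mean in NEN replicates 1 and 3, and 9 did in NEN replicate 2. NEN replicate 1 had the highest value of its group for PPP1R15A, PPP1R15B, STC2, ASNS and VLDLR and the lowest for CTH and PCK2, so the replicates did not differ in a single direction.

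By level, the order in DMSO cells was EIF4EBP1 (483 ± 34 TPM, SD, n = 3), ASNS (86.5 ± 11.5), PPP1R15B (64.2 ± 1.8), PCK2 (22.4 ± 2.0), VLDLR (16.2 ± 1.4) and TRIB3 (10.3 ± 0.8). STC2 (7.22 ± 1.80), PPP1R15A (7.15 ± 0.93) and CHAC1 (6.76 ± 0.80) followed with overlapping libraries and could not be ordered, and CTH (2.48 ± 0.12) was last. In NEN cells the top of the order was the same: EIF4EBP1 (558 ± 15), ASNS (120.8 ± 4.4), PPP1R15B (66.6 ± 3.3) and PCK2 (37.2 ± 1.6). TRIB3 (33.7 ± 1.0) and PPP1R15A (24.6 ± 3.3) had moved above VLDLR (20.5 ± 1.3), whose libraries overlapped with those of CHAC1 (18.9 ± 2.2) and STC2 (18.7 ± 4.2). The highest STC2 library also reached above the lowest of PPP1R15A. CTH (4.65 ± 0.98) stayed lowest.

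Most of these genes have a paralog that was measured in the same libraries. Of 7 pairs compared, PCK2 and PCK1 were left out of the test because PCK1, the cytosolic enzyme of liver and kidney, had at most 0.11 TPM. In the other 6 pairs the log2 ratio of member to paralog was higher in every NEN library than in every DMSO library. The exact permutation test, two-sided, gave p = 0.1 for each (adjusted p = 0.1 over 6 pairs). That is the smallest value that 3 against 3 libraries allow, so no pair could pass the threshold by this test. In each of these pairs the member alone was already higher in every NEN library, so the ratio in part restates that rise. The share of such ratios among other gene pairs was not worked out. CHAC1 and CHAC2 diverged by 2.70 on the log2 scale, or by 1.87 with a pseudocount of 5. CHAC2, which also degrades glutathione but more slowly, fell from 8.07, 10.4 and 11.6 TPM to 3.51, 2.93 and 3.51 TPM (-1.35 ± 0.16, adjusted p = 0.00156). With a pseudocount of 5 the CHAC2 difference was -0.85. CHAC2 was therefore the higher of that pair in every DMSO library and the lower in every NEN library.

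TRIB3 and TRIB2 diverged by 2.55. TRIB2, a Tribbles protein that is abundant in these cells, fell from 152, 133 and 128 TPM to 79.1, 68.1 and 67.3 TPM (-0.94 ± 0.09, adjusted p = 0.000786), and still exceeded TRIB3 in every library. For PPP1R15A over PPP1R15B the ratio moved by 1.60. STC2 over STC1 moved by 1.17, with STC2 the lower of the pair in every DMSO library and the higher in every NEN library. In DMSO the gap was widest in replicate 1 (5.18 against 11.4 TPM) and small in replicate 3 (7.85 against 8.19 TPM). STC1 itself had 9.84 ± 1.59 TPM with DMSO and 10.5 ± 0.8 TPM with NEN (SD, n = 3 each, limma adjusted p = 0.656). For VLDLR over LRP8, the other receptor of reelin, the ratio moved by 0.71, and LRP8 had -0.38 ± 0.15 (adjusted p = 0.0943), or -0.53 without NEN replicate 1, where it passed the test. EIF4EBP1 over EIF4EBP2 moved by 0.55. EIF4EBP2, a related inhibitor of eIF4E, fell from 56.8, 52.0 and 51.4 TPM to 41.4, 43.0 and 41.6 TPM (-0.34 ± 0.07, adjusted p = 0.0101).

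**Figure D4:**
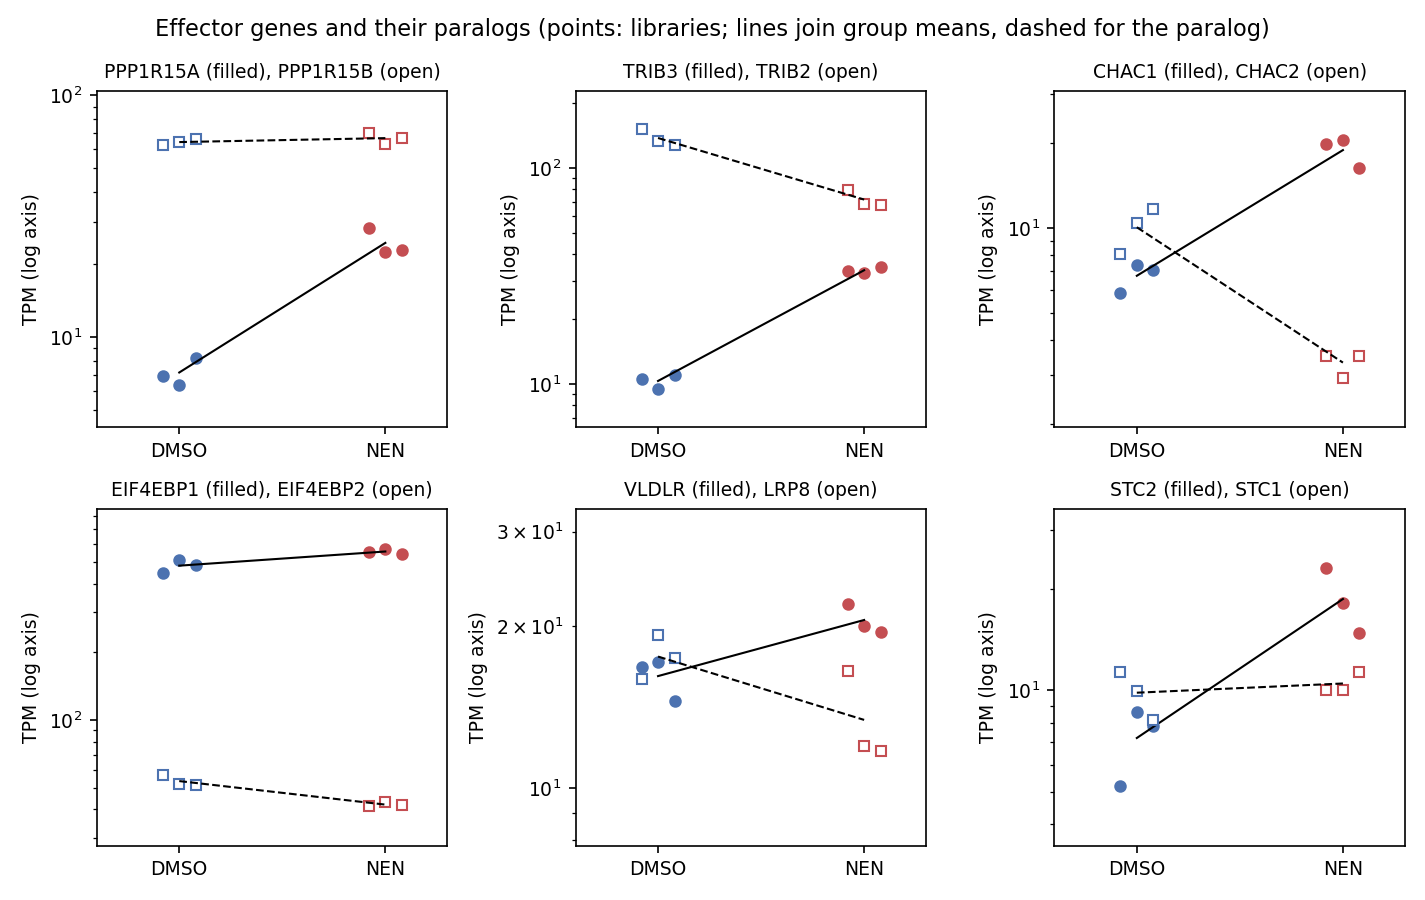
TPM on a log axis of 6 effector genes (filled circles, solid line) and their paralogs (open squares, dashed line) in each library, with lines joining the group means. CHAC1 and CHAC2 change places, as do STC2 and STC1, TRIB2 and EIF4EBP2 fall while TRIB3 and EIF4EBP1 rise, and PPP1R15B, STC1 and LRP8 have overlapping groups.

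The transcription factors of the integrated stress response were measured in the same fit, and 4 of 6 tested rose while 0 fell (median 0.41), beside 13.5% of all tested genes that rose and 16.5% that fell. ATF4 mRNA was abundant, with 352, 348 and 337 TPM in DMSO and 377, 375 and 363 TPM in NEN libraries. Its groups did not overlap, yet the difference of 0.10 ± 0.05 did not pass the test (adjusted p = 0.138), except after quantile normalization (0.17, adjusted p = 0.0439). ATF4 is controlled largely at translation, which mRNA levels do not show. DDIT3 encodes CHOP, a partner of ATF4 at several of these genes, and had 17.2, 23.9 and 23.7 TPM with DMSO and 73.3, 70.7 and 70.8 TPM with NEN (1.70 ± 0.13, adjusted p = 0.000332). CEBPB, a C/EBP factor, rose by 1.38 ± 0.12 and ATF5 by 0.53 ± 0.10. CEBPG, another C/EBP partner of ATF4, had 0.28 ± 0.08 (adjusted p = 0.0432), but no set of 5 libraries kept it past the threshold (0.23 to 0.31). Upstream, of 17 genes for eIF2 kinases, eIF2, eIF2B, phosphatase 1 and the OMA1-DELE1 relay, 1 rose and 1 fell (median -0.14). EIF2AK1, the kinase HRI that is engaged by the mitochondrial relay, rose by 0.33 ± 0.06 (adjusted p = 0.00521), and EIF2B1, a subunit of the exchange factor, fell by 0.51 ± 0.07 (adjusted p = 0.00266).

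Of other ATF4 target genes, 11 of 32 tested rose and 4 fell, with a median of 0.16. Over all tested genes 13.5% rose and 16.5% fell. GDF15, a secreted cytokine, rose by 3.32 ± 0.17 and DDIT4, an inhibitor of mTORC1, by 2.20 ± 0.15. GDF15 was low in DMSO libraries (0.68 ± 0.30 TPM, SD, n = 3), and its difference was 4.41 with a pseudocount of 0.1 and 1.86 with 5. HERPUD1, a protein of endoplasmic reticulum degradation, rose by 0.66 ± 0.08 and VEGFA, the angiogenic growth factor, by 0.70 ± 0.12. The 4 genes that fell, named after their values were seen, were PSAT1 of serine synthesis, the amino acid transporters SLC7A1 and SLC1A4, and the methionyl-tRNA synthetase MARS. Their group means went from 153.2 to 115.5, from 64.6 to 54.9, from 12.6 to 8.05 and from 151.0 to 133.7 TPM. SLC7A1 (-0.26 to -0.19) and MARS (-0.20 to -0.15) missed the threshold whichever library was dropped. Genes of the endoplasmic reticulum unfolded protein response included 3 that rose and 6 that fell among 19 tested (median -0.13), beside 13.5% and 16.5% of all tested genes. The chaperone cofactors SDF2L1 and DNAJB11 fell by 0.60 ± 0.06 and 0.58 ± 0.08, the chaperone CALR fell by 0.27 ± 0.05, and the sensor ATF6 rose by 0.50 ± 0.09.

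**Figure D5:**
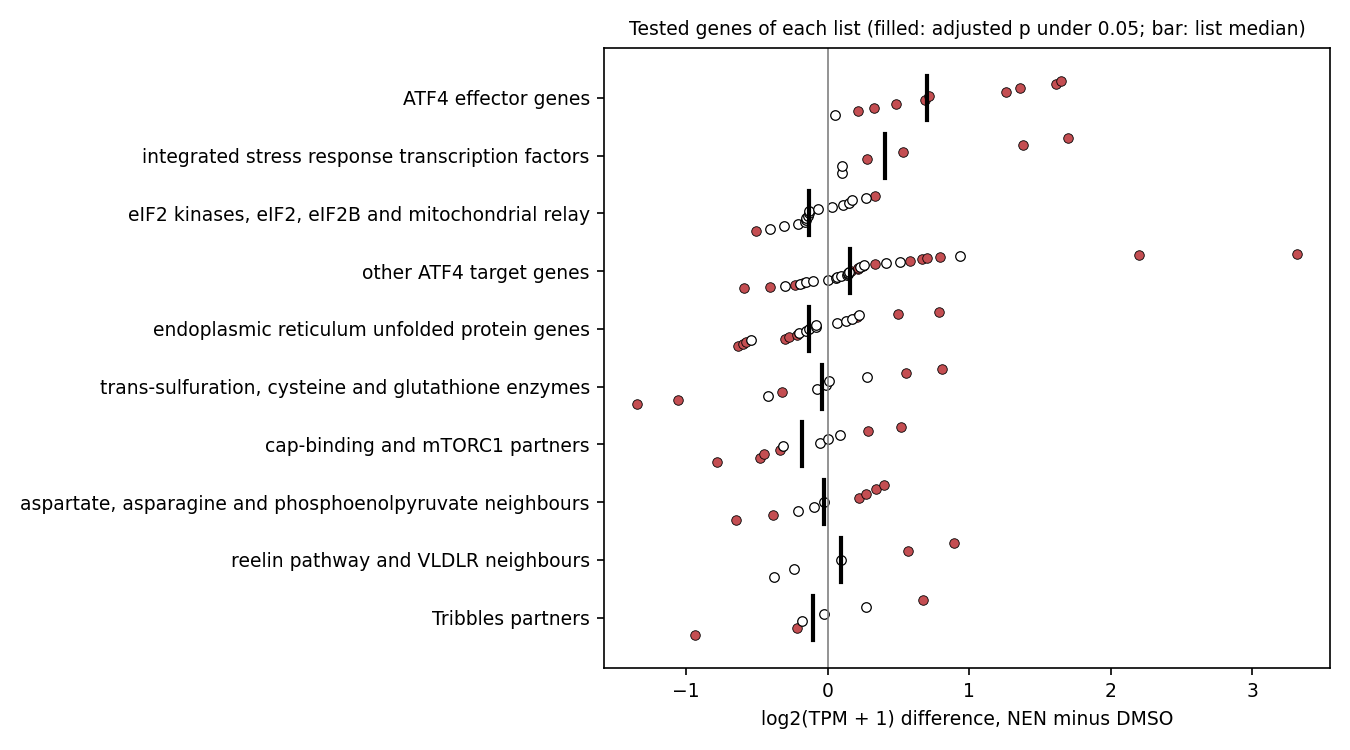
Differences between NEN and DMSO on the log2(TPM + 1) scale for the tested genes of each list, filled where the adjusted p was under 0.05, with the list median as a bar. All 10 ATF4 effector genes lie above 0 (median 0.70), while genes of the other lists lie on both sides of 0, apart from the 6 stress response factors.

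The surroundings of single effectors were described from lists as well. Their counts stand beside 13.5% of all tested genes that rose and 16.5% that fell, and no list was tested against them. Around CTH and CHAC1, 2 of 10 tested genes of cysteine and glutathione handling rose and 3 fell (median -0.04). CBS, which makes the cystathionine that CTH cleaves, fell from 162.7 ± 3.7 to 130.0 ± 5.3 TPM (SD, n = 3 each), the opposite direction to CTH. GCLM, a subunit of the first enzyme of glutathione synthesis, fell by 1.06 ± 0.15 (adjusted p = 0.00302), and MPST, which transfers sulfur from cysteine products, rose by 0.55 ± 0.05 (adjusted p = 0.000718). Around ASNS and PCK2, 4 of 9 rose and 2 fell (median -0.02). ASS1, which uses aspartate to make argininosuccinate, rose by 0.40 ± 0.04, PC, which makes oxaloacetate, by 0.34 ± 0.06 and GOT1, the cytosolic aspartate aminotransferase, by 0.27 ± 0.06, a call that without NEN replicate 1 was lost (0.24, adjusted p = 0.0503). ASNSD1, a relative of ASNS, fell by 0.65 ± 0.11.

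Around EIF4EBP1, 2 of 10 partners in cap binding and mTORC1 rose and 4 fell (median -0.18), beside 13.5% and 16.5% of all tested genes. The scaffold EIF4G1 fell from 326.7 ± 23.0 to 189.2 ± 3.0 TPM (-0.78 ± 0.06, adjusted p = 0.000401). EIF4E, the target of 4E-BP1, fell from 143.3 ± 20.5 to 104.2 ± 3.5 TPM (-0.45 ± 0.10, adjusted p = 0.0152), and its call was lost without NEN replicate 2 (-0.42, adjusted p = 0.0532). In every library the EIF4EBP1 mRNA exceeded that of EIF4E. MLST8, a subunit of mTORC1, had 0.29 ± 0.07, which no longer passed once DMSO replicate 3 (0.29) or either NEN replicate 1 (0.27) or 3 (0.28) was dropped. Around VLDLR, 0 of 5 tested genes fell, and LRP1, a large lipoprotein receptor, rose by 0.89 ± 0.15 (adjusted p = 0.00567), or by 0.53 with a pseudocount of 5. MYLIP, a ligase that marks VLDLR for degradation, had -0.24 ± 0.10 and did not pass the test (adjusted p = 0.103). Among the partners of Tribbles proteins 2 of 6 tested genes fell, TRIB2 and AKT2. AKT2 had -0.22 ± 0.07, a call lost in 10 of 14 alternatives, among them every left-out library except NEN replicate 2 (-0.27 to -0.17 over all 6). TRIB1 had 0.27 ± 0.10 (adjusted p = 0.0896).

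The genes whose profile over the 6 libraries lay closest to the mean profile of the 10 effectors were sought among 8065 other tested genes averaging 10 TPM or more. Likeness was the root mean square difference of log2 values centred on the DMSO mean. The mean profile lay between -0.05 and 0.04 in DMSO and between 0.78 and 0.88 in NEN libraries. A gene is therefore close mainly by having a difference of about that size and little spread. Single effectors ran from 0.05 (PPP1R15B) to 1.65 (PPP1R15A). The 5 closest were MSMO1, a sterol oxidase of cholesterol synthesis, NOB1, a nuclease of small ribosomal subunit maturation, the clone-named entry RP11-415I12.2, TAGLN3, a neuronal calponin-related protein, and PGAM2, a phosphoglycerate mutase. Their distances were 0.044 to 0.066, and MSMO1 went from 48.6 ± 1.4 to 87.1 ± 4.8 TPM. None is among the lists of stress genes used here.

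The 6 libraries were alike in totals: 929054 to 933500 TPM over the listed names and 17285 to 18041 genes above 0. All 8 markers of noradrenergic neuroblastoma were expressed, with summed levels of 2508 to 2664 TPM in DMSO and 3340 to 3603 TPM in NEN libraries. Immune markers summed to 7.41 to 11.1 and 15.2 to 17.2 TPM, with CD68 alone above a mean of 1 TPM among 6 and CD3E at 0 in every library. Stromal markers summed to 16.1 to 20.9 and 25.9 to 31.2 TPM, with 4 of 6 above a mean of 1 TPM. Epithelial markers summed to 7.82 to 9.18 and 5.55 to 12.9 TPM, with 4 of 5 above a mean of 1 TPM. Endothelial markers summed to at most 1.90 TPM, with 0 of 3 above a mean of 1 TPM. Schwann cell markers summed to at most 3.44 TPM, with S100B alone above a mean of 1 TPM among 4. CD68 and the stromal marker PDGFRB rose with NEN (0.89 ± 0.13 and 1.06 ± 0.16), and their part in the rise of the effector genes was not tested.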

How the data were processed

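RNA-seq libraries of SK-N-BE(2) cells (3 DMSO, 3 NEN) were grouped by the treatment in the labels. The authors deposited TPM values, 1 column per library, and the submitters' processing notes name kallisto and the hg19 build; their versions, and the step from transcripts to genes, are not given in the sources here. Per the labels' protocols, Trizol served for extraction, with polyA capture or rRNA removal named but not told apart. TPM keeps no counts, hence the sequencing depth is unknown and values carry no counting interval.

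Genes averaging 1 TPM or more (12576) were taken as log2(TPM + 1) and fitted with limma 3.58.1 in R 4.3.3 (group only, trend and robust settings), with two-sided tests and Benjamini-Hochberg adjustment over all of them. P-values set the difference between groups against the spread between these libraries, which limma adjusts using all tested genes. The 10 genes and the lists were chosen with earlier results of these data known. Of 166 list and marker entries, 155 matched by symbol and 11 by an older symbol in the RefSeq table. Named beside the 10 genes are at most 4 genes per list with the smallest adjusted p, ATF4, DDIT3, the paralogs and the 5 closest profiles; exceptions are marked. Results of 2 genes of these lists are not reported here. A simulation of the NEN and DMSO comparison held 12576 genes, 200 of them changed. In it the test recovered 24.0% of 1.5-fold and 78.5% of 2-fold changes, and 0% and 4.85% of its calls were false. The changes were planted on the log2(TPM + 1) scale, and only in genes above a DMSO level that CTH did not reach. In the data 30.0% of tested genes were called, a far larger share than was changed in the simulation, so these rates need not hold here. The alternatives tried were blocking on replicate number, dropping each library in turn, other filters, pseudocounts and scalings, and plain limma settings. Promoter windows came from RefSeq (GRCh38.p14), which differs from the files' build. Overlapping exons came from GENCODE release 29. Figures used matplotlib 3.10.9 in Python 3.11.15.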

Additional observations from a re-analysis of the deposited data

How the results depend on the processing

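TRIB3, CHAC1, PPP1R15A, ASNS, PCK2 and STC2 passed the threshold in all 14 alternatives, and PPP1R15B in none. None of the 10 genes changed direction in them. Between 6 and 9 of the 10 genes rose, and 4 with a minimum difference of 1 on the log2 scale. Leaving out 1 library gave 6 to 7. CTH, VLDLR and EIF4EBP1 were the genes that lost calls: on leaving out 1 library their differences ranged from 0.60 to 0.84, from 0.26 to 0.37 and from 0.15 to 0.26. With the replicate block VLDLR (0.33) and EIF4EBP1 (0.21) lost their calls, as they did with no filter (0.33 and 0.21) and with limma without trend and robust settings (0.33 and 0.21). CTH was not tested at a minimum of 5 TPM. Libraries with the same replicate number shared little deviation: the correlation of same-numbered deviations was 0.01, -0.01 and -0.03. These values do not tell whether the cultures were paired. DMSO replicate 3 correlated best with NEN replicate 2 (0.05). The block changed no other call among the 10 genes, and over all tested genes it gave 1328 rises and 1649 falls. Over all tested genes, leaving out 1 library gave 1063 to 1554 rises, the lowest without NEN replicate 1, against 1699, and 1402 to 1914 falls against 2074. Median-ratio scaling and quantile normalization moved the median of all genes from -0.02 to 0.00. Paralog ratios kept their direction in all 8 alternatives. Depth is unknown, so no counting error can be given for CTH, the lowest gene.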
